A study of Drosophila melanogaster with 9 samples.

Results

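The genes described here are those whose RNA was high in a single library, the first of 3 libraries labelled ataxin-7. They were chosen by their RPKM (reads scaled to the length of the gene and the size of the library) in the ataxin-7 libraries, as the 274 genes, of 15682 in the table, with at least 10 RPKM in ataxin-7 replicate 1 and at least 4 times the level of both ataxin-7 replicate 2 and ataxin-7 replicate 3. The gene yl, which meets both thresholds, was left out by the rule. Since the values of the 3 ataxin-7 libraries were used for this, the levels in those libraries are given as a description and were not tested. The rule used no value of the OregonR and non-stop libraries, but it was set with earlier results of these data known.

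RNA was sequenced from hand-sorted stage 5 embryos of Drosophila melanogaster in 3 groups of 3 libraries. The groups were ataxin-7, non-stop and the wild-type strain OregonR. Ataxin-7 and Non-stop are subunits of the deubiquitinase module of SAGA, a co-activator that removes ubiquitin from histone H2B, and Non-stop is the protease of that module. Embryos were laid over 2 h, aged for a further 1 h and kept at 25 °C, and the labels call the libraries biological triplicates. The alleles are not given in the labels. The genotype entries of ataxin-7 replicates 2 and 3 read differently from their titles (ataxin-8 and ataxin-9), and the titles were followed. The ataxin-7 and OregonR libraries came from experiment 1013 and the non-stop libraries came from experiment 1190. Wild-type embryos from experiment 1190 were not analysed here. In each comparison of non-stop with OregonR, genotype and experiment cannot be told apart.

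Before its own genome is transcribed, the fly embryo runs on RNA that the mother loads into the egg. These maternal transcripts encode meiotic and egg activation proteins, germ plasm, chaperones, the machinery of fast S phases and mitoses, and enzymes of basic metabolism. At about stage 5 many of them are degraded while patterning genes of the zygote are switched on, so the level of a maternal transcript at this stage depends on how far that exchange has gone.

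The targeted genes were read first. The RNA of not, which encodes Non-stop, was at 0.608, 0.662 and 1.11 RPKM in the 3 non-stop libraries, against 52.3, 53.5 and 56.7 RPKM in OregonR. Atxn7 was at 21.9, 25.5 and 28.0 RPKM in the ataxin-7 libraries and at 17.98, 19.1 and 19.8 RPKM in OregonR, so each ataxin-7 value was above each OregonR value and the RNA does not identify these libraries, which are called ataxin-7 by their titles. Replicate 1 stood apart from its group. Over the 7006 other genes tested, its log2(RPKM + 1) values correlated with r of 0.942 and 0.927 with ataxin-7 replicates 2 and 3, from 0.957 to 0.964 with the non-stop libraries and from 0.833 to 0.880 with the OregonR libraries. These correlations are across genes, which are not replicates, and were not tested. Sequencing depth in genes was 36.9 to 39.3 M reads (M, megareads) in non-stop and 74.8 to 90.0 M reads in the other groups. The lowest read number behind a member in replicate 1 was 147.

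The same 2 thresholds were also applied to each of the other 8 libraries against its own 2 replicates, and no gene passed, which is a description since the rule was set on replicate 1. In replicate 1 the 274 genes were 5.73% of the 4784 genes with at least 10 RPKM. The median ratio of replicate 1 to the higher of replicates 2 and 3 was 6.07, the highest was 116.6 for Cyp6a19, and 60 genes had a ratio of at least 10. Most were of moderate abundance, since 156 had under 20 RPKM in replicate 1 and 11 had at least 100 RPKM. At the RPKM threshold, CG43107 at 10.1 RPKM and DhpD at 10.1 RPKM were just inside, and CG33506 at 9.996 RPKM and CG2614 at 9.995 RPKM were just outside. At the ratio threshold, CG12236 at 4.002 and mge at 4.009 were just inside, and TrpRS and mRpS2 at 3.98 were just outside.

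**Figure D1:**
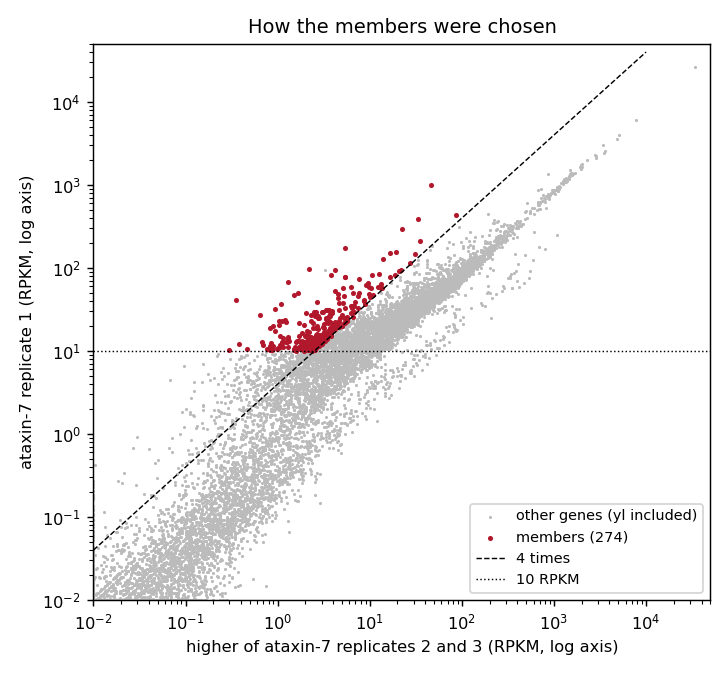
RPKM of each gene in ataxin-7 replicate 1 (vertical, log axis) against the higher of ataxin-7 replicates 2 and 3 (horizontal, log axis). Values under 0.01 are drawn at 0.01, the dashed line is 4 times and the dotted line is 10 RPKM. The 274 members (red) lie above both lines, and the grey point above both lines is yl.

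Most members were intermediate in non-stop and low in OregonR. Their median level was 17.8 RPKM in ataxin-7 replicate 1, and 2.77 and 2.36 RPKM in replicates 2 and 3. It was 10.2, 9.90 and 8.37 RPKM in the 3 non-stop libraries, against 3.47, 3.32 and 3.49 RPKM in the 3 OregonR libraries. The genes took 2.25% of the reads of ataxin-7 replicate 1 and 0.343% and 0.269% of those of replicates 2 and 3. They took from 1.20% to 1.43% in non-stop, against 0.341% to 0.366% in OregonR. In such bulk RNA, fewer cells of a type and less RNA per cell cannot be told apart. For 248 of the 274 members (90.5%) every non-stop value lay between replicate 1 and the other ataxin-7 libraries. The rule itself set a gap of at least 4 times between those bounds, so nothing is read from this share. Per gene, the non-stop mean was 13.8% to 425% of replicate 1, with a median of 50.8%. The OregonR mean was 0.272% to 81.1% of replicate 1, with a median of 17.2%.

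**Figure D2:**
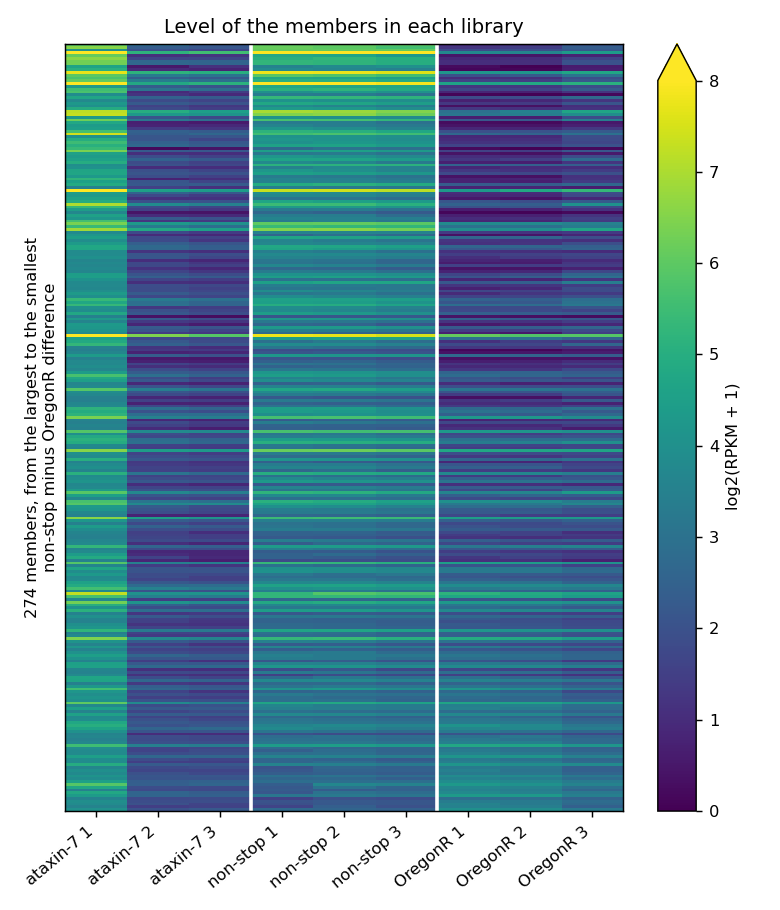
Level of the 274 members, as log2(RPKM + 1), in the 9 libraries, with members ordered from the largest to the smallest difference between non-stop and OregonR. The column of ataxin-7 replicate 1 is the brightest in most members, and ataxin-7 replicates 2 and 3 are darker. Non-stop is intermediate in most members, and OregonR is dark in the upper part and brighter towards the bottom.

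Replicate 1 held the highest of the 9 values for 251 members (91.6%). Over the 7280 genes tested the share was 26.8%, but the rule used replicate 1, so nothing is read from the 2 shares. The other 23 members had a higher value elsewhere, in a non-stop library for 22 of them and in an OregonR library for Prim2. All 3 non-stop values exceeded replicate 1 for 10 members. The widest gap was at Usp5, which encodes an enzyme that takes apart free ubiquitin chains. Usp5 had 15.7, 2.91 and 2.15 RPKM in ataxin-7 replicates 1, 2 and 3, 66.9, 67.1 and 66.4 RPKM in non-stop and 2.58, 2.78 and 3.52 RPKM in OregonR. It was thus far higher in non-stop than in any other library. PolD2, a subunit of DNA polymerase delta, had 33.8, 33.6 and 33.8 RPKM in non-stop, against 14.6 RPKM in replicate 1. Nadk1b, an NAD kinase, had 22.5, 24.9 and 25.2 RPKM in non-stop and 12.8 RPKM in replicate 1, and Idh, the NADP-dependent isocitrate dehydrogenase, had 38.8, 38.6 and 35.1 RPKM in non-stop and 25.0 RPKM in replicate 1. Akr1B, Gcna, Glyp, CG2694, CG10866 and CG16972 completed the 10, with non-stop means of 105% to 134% of replicate 1.

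The comparison of non-stop with OregonR holds no ataxin-7 library and is the test the design allows on these genes. All 274 members passed the filter on low values (at least 1 RPKM in at least 3 of the 6 libraries), 23 of them through the non-stop libraries alone. These 23, with every OregonR value under 1 RPKM, had to differ for that reason, and BicC, fs(1)N, Mos, Got2, Cyp6a19, CG43107 and mir-4917 among them are described below. By limma on log2(RPKM + 1), with Benjamini-Hochberg adjustment over the 7280 genes tested and a call at an adjusted p under 0.05, 222 members (81.0%) were called higher in non-stop, where 47.7% of all genes tested were called higher. The number called lower was 16 (5.84%), where 35.1% of all genes tested were called lower, and 36 were not called. Without OregonR replicate 3 the number called lower was 27, and with quantile normalization it was 29. Without the 23 members, 199 of 251 (79.3%) were higher and 16 (6.37%) lower, with a median log2 fold change of 1.34. The median log2 fold change of the members was 1.45, beside 0.17 over all genes tested, and their range was -1.13 to 4.61. At least 2-fold higher values were seen in 173 members, at least 4-fold higher values in 82 and at least 2-fold lower values in 4. The groups did not overlap, with all non-stop values above all OregonR values, for 220 members (80.3%, against 49.1% of all genes tested). All non-stop values lay below all OregonR values for 14 members (5.11%, against 36.4%). Among the other 4509 genes tested with at least 10 RPKM in replicate 1, 47.9% were called higher and 34.6% lower. In a limma fit on all 9 libraries, whose estimate of the spread includes the gap by which the members were chosen, 125 members were called higher and 0 lower, with 143 higher and 1 lower at an unadjusted p under 0.05.

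**Figure D3:**
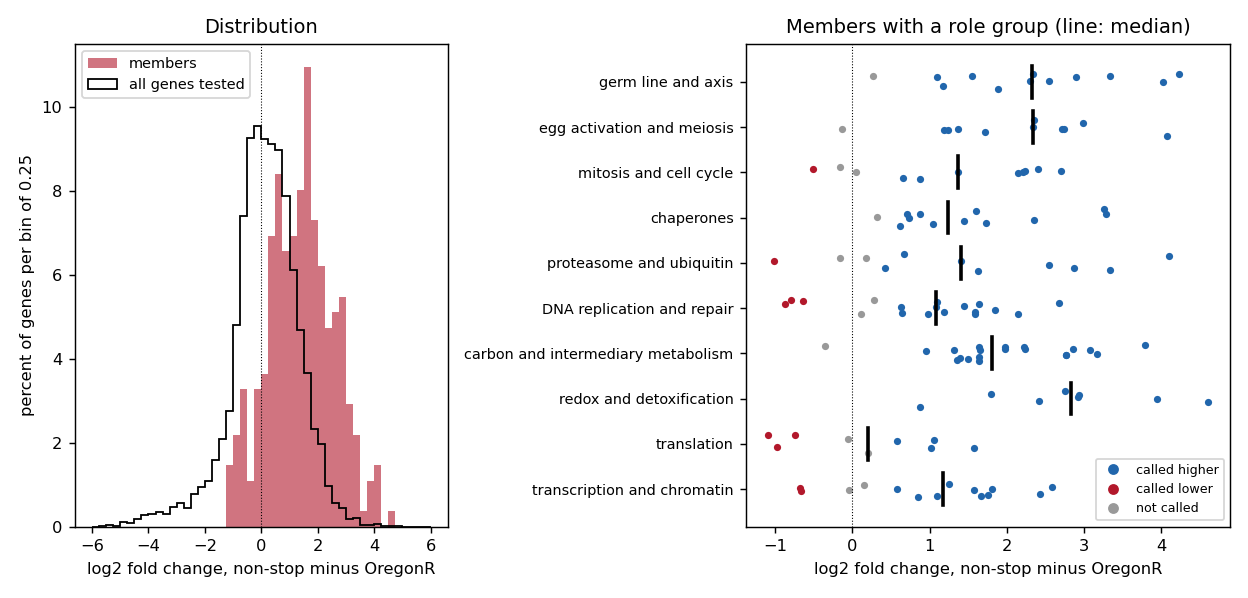
Left, percent of the 274 members (red) and of all 7280 genes tested (black line) in bins of the log2 fold change of non-stop minus OregonR, on the log2(RPKM + 1) scale. Right, the same value for each member with a role group, coloured by its call (adjusted p under 0.05 by limma), with the group median as a line. The members' histogram is centred to the right of that of all genes, and the group medians run from 0.20 for translation to 2.84 for redox and detoxification.

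A role could be given to 126 members, in 10 groups set after the members were known, from general knowledge of the genes. The members named in each group are the 40 that a fixed rule names (the most abundant in replicate 1, those with the largest and smallest differences and those on the marker lists) and others chosen for their known role after the values were seen. Group counts and medians include members that passed the filter through non-stop alone and so had to differ. Mos, BicC, fs(1)N, Got2 and Cyp6a19 are among these. Over all genes tested, 47.7% were called higher in non-stop and 35.1% lower. RPKM is per base of gene, so levels of different genes are compared per length.

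Egg activation and female meiosis gave 11 members, of which 10 were higher in non-stop than in OregonR and none was lower (median log2 fold change 2.34). The most abundant member of all was dhd (FBgn0011761, X chromosome), a thioredoxin made in the female germ line that acts at the change from egg to embryo. It had 1000.1, 34.8 and 46.1 RPKM in ataxin-7 replicates 1, 2 and 3, 243, 274 and 255 RPKM in non-stop and 12.9, 11.4 and 19.98 RPKM in OregonR. All non-stop values were far above all OregonR values and all lay below replicate 1, and the log2 fold change in non-stop was 4.07 ± 0.19 SE by limma (adjusted p 3.73e-06 over all genes tested). Gnu and Png are partners in the PAN GU kinase, which drives translation at egg activation. The gene gnu (FBgn0001120, arm 3L) had 147, 30.8 and 21.97 RPKM in ataxin-7, 122, 109 and 88.4 in non-stop and 7.17, 10.7 and 25.0 in OregonR, a log2 fold change of 2.98 ± 0.39 SE. The gene png was less abundant, with 13.3, 1.97 and 2.10 RPKM in ataxin-7, 6.57, 6.25 and 5.67 in non-stop and 1.60, 1.65 and 2.99 in OregonR (1.24 ± 0.18 SE). In both genes non-stop and OregonR did not overlap, and OregonR replicate 3 was the highest OregonR library. The remaining subunit, plu, was no member: it had 75.1, 61.8 and 63.5 RPKM in ataxin-7, 48.5, 50.4 and 51.1 in non-stop and 38.7, 40.3 and 55.2 in OregonR, and its difference was not called (log2 fold change 0.17 ± 0.13 SE, adjusted p 0.241 by limma).

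Matrimony, the inhibitor of Polo kinase in the oocyte, is encoded by mtrm. It had 129, 13.8 and 10.4 RPKM in ataxin-7, 43.3, 42.9 and 33.0 in non-stop and 4.69, 4.25 and 15.8 in OregonR (2.35 ± 0.43 SE, adjusted p 0.00161 by limma). OregonR replicate 3 was well above the other OregonR libraries and below all non-stop libraries. The maternal tubulin genes behaved alike, with 83.4, 3.84 and 3.53 RPKM for alphaTub67C in ataxin-7, 21.8, 22.6 and 19.3 in non-stop and 1.99, 1.72 and 3.49 in OregonR. For gammaTub37C the values were 28.2, 3.70 and 2.63 in ataxin-7, 6.77, 8.38 and 6.19 in non-stop and 1.16, 1.76 and 1.47 in OregonR. Neither gene had overlapping non-stop and OregonR values. Mos, a kinase of oocyte meiosis, fs(1)Ya, a nuclear envelope protein needed for the first embryonic division, Myt1, an inhibitory kinase of Cdk1, and nod, a kinesin-like protein that holds chromosomes in meiosis, were higher in non-stop by log2 fold changes of 2.71, 2.34, 1.37 and 1.19. Klp3A, a kinesin of the meiotic and mitotic spindle, was the exception. It had 11.8, 2.87 and 2.78 RPKM in ataxin-7, 7.80, 8.09 and 6.85 in non-stop and 10.1, 10 and 5.90 in OregonR, and its difference was not called (-0.14 ± 0.19 SE, adjusted p 0.519 by limma). It was called lower in 3 of 16 other fits by limma, without OregonR replicate 3 (-0.37, adjusted p 0.00409), with centring by gene length (-0.54, adjusted p 0.0347) and with quantile normalization (-0.51, adjusted p 0.0386). Of the 30 tested genes of a list of egg activation and meiosis genes that were no members, 19 were higher in non-stop and 4 lower. Over all genes tested, 47.7% were higher and 35.1% lower. The median log2 fold change of the 30 was 0.80, beside 0.17 over all genes tested.

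The germ line and axis group held 12 members, 11 higher in non-stop and 1 not called (median log2 fold change 2.32). The gene osk (FBgn0003015, arm 3R) encodes Oskar, which assembles the germ plasm at the posterior pole. It had 93.5, 4.14 and 3.55 RPKM in ataxin-7, 69.1, 62.8 and 48.3 in non-stop and 1.34, 1.78 and 4.11 in OregonR, and the log2 fold change in non-stop was 4.23 ± 0.29 SE (adjusted p 1.43e-05 by limma). BicC, an RNA-binding repressor of translation in the oocyte, had 67.8, 1.102 and 1.29 RPKM in ataxin-7, 26.7, 25.1 and 18.4 in non-stop and 0.396, 0.383 and 0.697 in OregonR. Its log2 fold change of 4.02 ± 0.16 SE is a description, since it passed the filter through non-stop alone. In ataxin-7 replicates 2 and 3 both RNAs were far closer to OregonR than to non-stop. The gene exu encodes a protein that localizes bicoid RNA. It had 48.0, 1.36 and 1.51 RPKM in ataxin-7, 8.65, 10.1 and 7.88 in non-stop and 0.789, 0.778 and 1.49 in OregonR (2.30 ± 0.16 SE), so its non-stop level was among the lowest relative to replicate 1, at 18.5%. The deubiquitinase gene otu, needed for oogenesis, had 62.4, 9.03 and 7.30 RPKM in ataxin-7, 59.6, 55.1 and 45.3 in non-stop and 2.85, 3.73 and 7.40 in OregonR (3.34 ± 0.28 SE). The first non-stop library came close to replicate 1 in otu, and all OregonR values were far below. A repressor of transcription in the pole cells, pgc, had 56.9, 12.8 and 13.6 RPKM in ataxin-7, 23.3, 23.5 and 18.3 in non-stop and 8.60, 8.89 and 11.6 in OregonR (1.09 ± 0.14 SE).

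The rest of this group had other known roles. Jabba, a lipid droplet protein that holds maternal histones, zpg, the innexin of the germ line, spz, the ligand of Toll, del, a factor of piRNA cluster transcription, and Gcna, a germ cell nuclear protein, were higher in non-stop by log2 fold changes of 2.90, 1.17, 1.55, 1.88 and 2.54. The gene fs(1)N, whose product sits in the eggshell and acts in terminal patterning, had 12.0, 0.377 and 0.331 RPKM in ataxin-7, 5.30, 4.66 and 3.79 in non-stop and 0.0906, 0.0469 and 0.153 in OregonR. It passed the filter through non-stop alone, so its log2 fold change of 2.34 ± 0.12 SE is a description. The gene tud, which gave Tudor domains their name and acts in the polar granules, had 14.3, 2.84 and 2.49 RPKM in ataxin-7, 8.76, 7.18 and 6.67 in non-stop and 7.62, 6.75 and 4.19 in OregonR. Its log2 fold change of 0.27 ± 0.20 SE was not called (adjusted p 0.241 by limma), and its sign turned with quantile normalization (-0.04) and with centring by gene length (-0.17). Of 32 tested genes on a list of germ line RNA regulators that were no members, 24 were higher in non-stop and 5 lower. Over all genes tested, 47.7% were higher and 35.1% lower. The median log2 fold change of the 32 was 0.92, beside 0.17 over all genes tested.

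**Figure D4:**
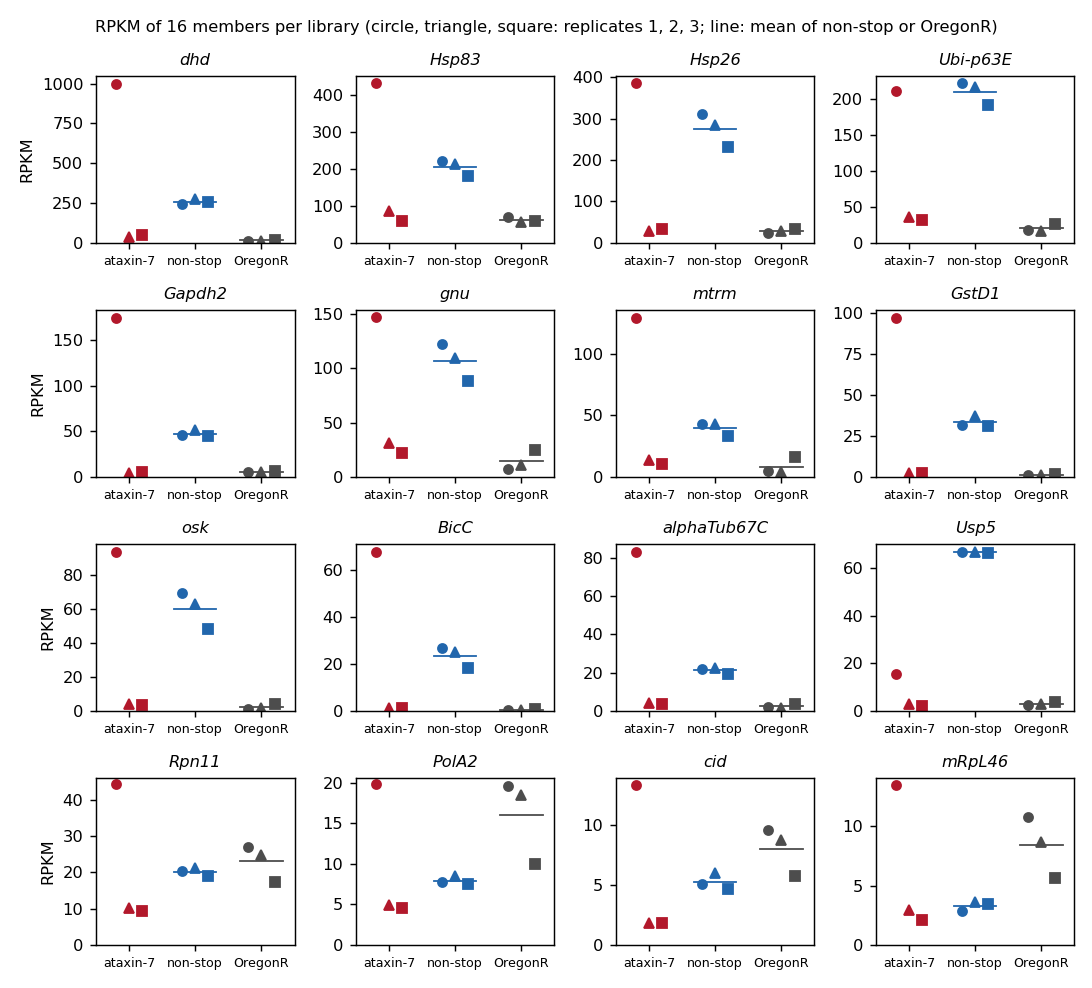
RPKM of 16 members in each library. Circles, triangles and squares are replicates 1, 2 and 3 and the lines are the means of the 3 non-stop or the 3 OregonR libraries. In each panel ataxin-7 replicate 1 is at least 4 times replicates 2 and 3. The non-stop libraries lie above OregonR from dhd to Usp5, overlap OregonR in Rpn11 and cid and lie below OregonR in PolA2 and mRpL46.

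Chaperones gave 12 members with a summed level of 1440 RPKM in replicate 1, from 685 to 825 RPKM in non-stop and from 203 to 233 RPKM in OregonR. Of the 12, 11 were higher in non-stop and none was lower (median log2 fold change 1.24). Hsp83 (FBgn0001233, arm 3L), the Hsp90 of the fly, had 433, 87.0 and 58.7 RPKM in ataxin-7, 222, 214 and 179.7 in non-stop and 68.5, 56.4 and 58.8 in OregonR (1.73 ± 0.10 SE, adjusted p 8.62e-06 by limma). The small heat shock protein gene Hsp26 had 386, 27.7 and 33.5 RPKM in ataxin-7, 312, 284 and 231 in non-stop and 23.2, 27.6 and 32.8 in OregonR (3.26 ± 0.15 SE). In both, non-stop lay between replicate 1 and all other libraries. Of 12 heat shock genes on a fixed list, Hsp26 was the single member. Of the 11 tested, 3 were higher and 2 lower in non-stop, beside 47.7% and 35.1% of all genes tested. The neighbour of Hsp26 in role, Hsp27, failed the ratio, with 316, 92.7 and 66.5 RPKM in ataxin-7. It had 409, 382 and 331 in non-stop and 38.4, 51.3 and 113 in OregonR.

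Among members with a symbol, folding of actin and tubulin was represented by CCT2 and CCT4, subunits of the cytosolic chaperonin. CCT2 had 94.7, 22.1 and 16.8 RPKM in ataxin-7, 42.9, 44.98 and 42.0 in non-stop and 22.1, 20.6 and 18.9 in OregonR (1.04 ± 0.07 SE, adjusted p 1.39e-05 by limma). The chaperonin list, chosen after the values were seen, was matched by symbol, and 7 of its 8 genes were found. Of the 5 found that were no members, 4 were called higher in non-stop and none lower, beside 47.7% and 35.1% of all genes tested. All 5 had replicate 1 above replicates 2 and 3, as had 57.5% of all genes tested. Tbca, a tubulin folding cofactor, was higher by a log2 fold change of 2.35. Mitochondrial chaperones were also members. Hsp60A, the mitochondrial chaperonin, had 66.8, 9.54 and 6.66 RPKM in ataxin-7, 32.6, 32.3 and 28.8 in non-stop and 1.94, 1.75 and 3.48 in OregonR (3.28 ± 0.19 SE), and Hsc70-5, the mitochondrial Hsp70, had a log2 fold change of 1.60 with its nucleotide exchange factor Roe1 at 0.62. Nacalpha, the alpha subunit of the nascent polypeptide-associated complex, had 152, 15.5 and 16.4 RPKM in ataxin-7, 37.2, 56.5 and 50.1 in non-stop and 34.9, 28.6 and 23.5 in OregonR. Its non-stop libraries all lay above OregonR, with the smaller log2 fold change of 0.70 ± 0.19 SE (adjusted p 0.00977 by limma). Stip1, which joins Hsp70 to Hsp90, and Fkbp59, a peptidyl-prolyl isomerase, had log2 fold changes of 0.88 and 0.73, and mgr, a prefoldin subunit, had 0.32 and was not called (adjusted p 0.0507 by limma).

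In the proteasome and ubiquitin group, 8 of 11 members were higher in non-stop, 1 was lower and 2 were not called (median log2 fold change 1.40). Ubi-p63E (FBgn0003943, arm 3L), a polyubiquitin gene, had 210.1, 35.4 and 31.5 RPKM in ataxin-7, 221, 216 and 192 in non-stop and 17.6, 17.0 and 25.6 in OregonR, a log2 fold change of 3.34 ± 0.15 SE (adjusted p 3.71e-06 by limma). Non-stop was at the replicate 1 level there, and OregonR below ataxin-7 replicates 2 and 3. Usp5, with the values given above, had the log2 fold change 4.10 ± 0.10 SE (adjusted p 9.32e-07 by limma). The ubiquitin hydrolase gene Uch had 35.4, 32.1 and 26.1 RPKM in non-stop, against 2.98, 3.23 and 3.94 RPKM in OregonR (2.87 ± 0.14 SE). The cofactors of the segregase p97, p47 and Ufd1, had 1.40 and 0.42.

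The 4 members in the regulatory particle of the proteasome differed among themselves. Rpn8 and Rpn1 were higher in non-stop by log2 fold changes of 1.62 and 0.67. Rpn7 had 64.2, 13.2 and 9.95 RPKM in ataxin-7, 24.5, 27.2 and 23.2 in non-stop and 24.6, 24.0 and 17.8 in OregonR, and the deubiquitinating subunit Rpn11 had 44.3, 10.1 and 9.21 RPKM in ataxin-7, 20.3, 21.3 and 19.0 in non-stop and 27.0, 24.7 and 17.2 in OregonR. In these 2 genes the non-stop and OregonR libraries overlapped and neither was called (log2 fold changes of 0.18 ± 0.13 SE and -0.16 ± 0.16 SE). The 14 other subunit genes of the particle were a list chosen after the values were seen. Of these, 11 were called higher in non-stop and 3 lower, beside 47.7% and 35.1% of all genes tested. Replicate 1 was above replicates 2 and 3 in 12 (57.5% of all genes tested). PSMG1, a chaperone of proteasome assembly, was lower in non-stop. It had 14.5, 2.72 and 2.79 RPKM in ataxin-7, 3.16, 3.75 and 3.37 in non-stop and 9.27, 8.86 and 6.07 in OregonR (-1.02 ± 0.16 SE, adjusted p 0.00067 by limma).

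Enzymes of carbon and intermediary metabolism were the largest group with a role, with 20 members, of which 19 were higher in non-stop and Pgi was not called (median log2 fold change 1.81). The glycolytic enzyme gene Gapdh2 (FBgn0001092, X chromosome) had 175, 4.24 and 5.35 RPKM in ataxin-7, 45.6, 51.02 and 44.6 in non-stop and 5.38, 4.88 and 6.90 in OregonR, a log2 fold change of 2.85 ± 0.12 SE (adjusted p 3.3e-06 by limma). Gapdh1, the other gene of this enzyme, had 115.2, 27.4 and 22.4 RPKM in ataxin-7, 88.3, 95.5 and 77.3 in non-stop and 14.4, 14.8 and 25.3 in OregonR (2.24 ± 0.21 SE). In both, every OregonR value was far below every non-stop value. Tpi, the triose phosphate isomerase, had 50.5, 0.958 and 1.66 RPKM in ataxin-7, 15.1, 18.7 and 15.5 in non-stop and 0.828, 0.678 and 1.37 in OregonR (3.17 ± 0.16 SE). Pgi, the glucose phosphate isomerase, had 13.3, 2.06 and 2.59 RPKM in ataxin-7, 4.41, 6.07 and 4.99 in non-stop and 8.76, 7.17 and 5.02 in OregonR, with non-stop and OregonR overlapping (-0.36 ± 0.19 SE, adjusted p 0.125 by limma). The glycolysis list, chosen after the values were seen, was matched by symbol, and 10 of its 11 genes were found. The 6 found that were no members were all called higher in non-stop (47.7% of all genes tested). All 6 had replicate 1 above replicates 2 and 3 (57.5%).

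Outside glycolysis, the tricarboxylic acid cycle and amino acid metabolism were represented by Mdh2 (malate dehydrogenase), Got2 (aspartate aminotransferase), Shmt (serine hydroxymethyltransferase) and Ahcy (adenosylhomocysteinase), with log2 fold changes in non-stop of 2.77, 2.22, 1.97 and 1.50. Idh had the larger value of 3.08 ± 0.24 SE, Taldo, the transaldolase of the pentose phosphate pathway, 2.76 ± 0.14 SE, and Glyp, the glycogen phosphorylase, 1.39 ± 0.15 SE. Adh, the alcohol dehydrogenase, and Adhr, its neighbour in the same transcription unit, had identical values in every library, so their reads cannot be told apart. They had 77.2, 5.34 and 4.99 RPKM in ataxin-7, 37.5, 36.2 and 31.0 in non-stop and 1.05, 1.09 and 3.01 in OregonR, a log2 fold change of 3.79 ± 0.26 SE (adjusted p 1.4e-05 by limma).

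All 8 members of the redox and detoxification group were higher in non-stop, with the highest group median (log2 fold change 2.84). Cyp6a19 among the 8 passed the filter through non-stop alone, so it had to differ. The largest value among all members was that of Akr1B, an aldo-keto reductase. Akr1B had 59.6, 6.32 and 3.54 RPKM in ataxin-7, 63.5, 67.0 and 62.5 in non-stop and 1.02, 1.22 and 3.23 in OregonR, a log2 fold change of 4.61 ± 0.26 SE (adjusted p 7.55e-06 by limma). Its non-stop libraries were all just above replicate 1. GstD1 (FBgn0001149, arm 3R), a glutathione S-transferase, had 97.3, 2.10 and 2.20 RPKM in ataxin-7, 31.5, 37.4 and 31.4 in non-stop and 0.909, 1.012 and 1.93 in OregonR (3.94 ± 0.18 SE). The peroxiredoxin gene Prx2 had 158, 19.2 and 16.4 RPKM in ataxin-7, 89.1, 96.5 and 72.6 in non-stop and 7.90, 9.63 and 14.2 in OregonR (2.94 ± 0.20 SE). For these 3 genes no non-stop value came near an OregonR value. The cytochrome P450 gene Cyp6a19 had 41.1, 0.121 and 0.352 RPKM in ataxin-7, 5.69, 7.24 and 6.64 in non-stop and 0.143, 0.0413 and 0.150 in OregonR, so that its mean was 15.9% of replicate 1 in non-stop and 0.272% in OregonR. It overlaps Cyp6a9 in the annotation and its lowest value rested on 7 reads. GstE6 had the lowest non-stop mean relative to replicate 1, at 13.8%.

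The mitosis and cell cycle group had 11 members, of which 8 were higher in non-stop, 1 was lower and 2 were not called (median log2 fold change 1.37). The checkpoint kinase Chk2 is encoded by lok, which had 91.6, 21.0 and 19.2 RPKM in ataxin-7, 69.7, 72.7 and 60.3 in non-stop and 26.4, 25.7 and 24.3 in OregonR (1.37 ± 0.08 SE, adjusted p 7.82e-06 by limma). Its OregonR libraries lay above ataxin-7 replicates 2 and 3. The inhibitor of Cyclin E and Cdk2, dap, had 29.6, 2.88 and 3.03 RPKM in ataxin-7, 25.2, 22.3 and 18.5 in non-stop and 3.37, 2.81 and 3.83 in OregonR (2.40 ± 0.14 SE). Rca1, an inhibitor of the anaphase-promoting complex, had a log2 fold change of 2.21 and APC7, a subunit of that complex, 2.70. The kinase gene Mps1 of the spindle checkpoint had 2.14, and the gamma-tubulin ring genes Grip71 and Grip84 had 2.24 and 0.66. The centromeric histone gene cid went the other way, with 13.4, 1.796 and 1.82 RPKM in ataxin-7, 5.10, 6.03 and 4.68 in non-stop and 9.64, 8.75 and 5.75 in OregonR (-0.51 ± 0.18 SE, adjusted p 0.0362 by limma). One non-stop value of cid was above the lowest OregonR value, that of replicate 3. Zw10, of the kinetochore, and dgt2, of augmin, were not called, at -0.16 ± 0.17 SE and 0.05 ± 0.17 SE.

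DNA replication and repair gave 18 members, with 13 higher in non-stop, 3 lower and 2 not called (median log2 fold change 1.09). Members reached along the fork. The DNA-binding subunit gene RPA1 had 49.7, 7.65 and 6.77 RPKM in ataxin-7, 32.7, 29.1 and 22.7 in non-stop and 15.1, 13.5 and 9.58 in OregonR (1.09 ± 0.19 SE), and Cdc45, of the helicase, had 26.7, 2.53 and 1.73 RPKM in ataxin-7, 10.4, 10.4 and 8.08 in non-stop and 3.36, 2.65 and 1.73 in OregonR (1.59 ± 0.19 SE). Both were higher in all non-stop than in all OregonR libraries. The clamp loader genes RfC4 and Gnf1 had log2 fold changes of 0.64 and 1.59, PolE2 of polymerase epsilon 0.63, PolD2 2.67 and Ctf4, which links helicase and polymerase alpha, 1.64. The polymerase alpha and primase genes differed from these. PolA2 had 19.9, 4.94 and 4.52 RPKM in ataxin-7, 7.80, 8.44 and 7.51 in non-stop and 19.7, 18.5 and 9.98 in OregonR (-0.88 ± 0.23 SE, adjusted p 0.01 by limma). Prim2 had 10.5, 2.38 and 2.33 RPKM in ataxin-7, 4.06, 3.98 and 4.64 in non-stop and 10.6, 9.51 and 5.21 in OregonR (-0.80 ± 0.23 SE, adjusted p 0.0139 by limma). In both, the first and second OregonR libraries were at about the replicate 1 level and all non-stop values were below all OregonR values. The gene hd, needed for DNA replication, was the remaining one called lower (-0.64 ± 0.17 SE).

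Origin recognition complex genes were split. Orc4 was higher in non-stop by 0.98 ± 0.18 SE, while Orc2 had 13.3, 2.13 and 1.88 RPKM in ataxin-7, 5.54, 5.43 and 4.65 in non-stop and 6.32, 5.16 and 3.19 in OregonR. Its log2 fold change of 0.11 ± 0.20 SE was not called (adjusted p 0.63 by limma), and its sign turned with quantile normalization (-0.15), with centring by gene length (-0.13) and without OregonR replicate 3 (-0.12). Repair genes were higher, with tos, an exonuclease, at 2.15, Msh6, of mismatch repair, at 1.08, Irbp, the Ku70 homologue, at 1.19, and mus101, a checkpoint scaffold, at 1.45. A replication fork list was chosen after the values were seen, and 32 of its 37 genes were found by symbol. Of the 21 that were tested and no members, 8 were called higher in non-stop and 6 lower, beside 47.7% and 35.1% of all genes tested. Their median log2 fold change was 0.05, below the 0.17 of all genes tested. Replicate 1 was above replicates 2 and 3 in 19 of the 21, beside 57.5% of all genes tested.

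Of the 9 translation members, 3 were lower in non-stop, 4 higher and 2 not called. These counts and the median of 0.20 were near the shares of all genes tested (35.1% lower, 47.7% higher) and their median of 0.17. The mitochondrial ribosomal protein gene mRpL46 had 13.5, 2.94 and 2.10 RPKM in ataxin-7, 2.87, 3.60 and 3.45 in non-stop and 10.8, 8.69 and 5.68 in OregonR (-1.09 ± 0.21 SE, adjusted p 0.00205 by limma). A further gene of this kind, mRpS25, had 10.6, 2.43 and 2.55 RPKM in ataxin-7, 1.93, 2.99 and 2.68 in non-stop and 6.41, 6.598 and 4.84 in OregonR (-0.98 ± 0.16 SE). Both were lower in every non-stop library than in any OregonR library. AlaRS, the alanyl-tRNA synthetase, was lower as well (-0.74 ± 0.14 SE), while MetRS, alpha-PheRS and beta-PheRS, synthetases for methionine and phenylalanine, were higher by 1.58, 1.02 and 0.57. Transcription and chromatin gave 14 members, with 10 higher, 2 lower and 2 not called (median log2 fold change 1.17). Those higher included srl, the PGC-1 homologue, at 2.59, cyc, a clock transcription factor, at 2.43, HipHop, a telomere capping protein, at 1.58 and dre4, the Spt16 subunit of FACT, at 1.25. NC2alpha, a repressor that binds TBP, and Etl1, a chromatin remodeller, were the 2 lower genes, at -0.67 ± 0.19 SE and -0.68 ± 0.19 SE.

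No role was given to 148 members, of which 92 have a CG or FlyBase number as their name. The 16 members without a symbol are among the 92 and could not be matched to a role. In this group 120 were higher in non-stop, 6 lower and 22 not called, with a median log2 fold change of 1.37, close to that of all members. The most abundant was CG6770 (FBgn0032400, arm 2L), with 298, 22.4 and 20.3 RPKM in ataxin-7, 157, 168 and 142 in non-stop and 18.2, 27.7 and 39.1 in OregonR (2.48 ± 0.24 SE, adjusted p 6.71e-05 by limma). The lowest log2 fold change of all was that of CG7744, which had 15.7, 3.01 and 3.75 RPKM in ataxin-7, 5.69, 5.16 and 4.54 in non-stop and 15.1, 14.2 and 8.86 in OregonR (-1.13 ± 0.19 SE, adjusted p 0.00118 by limma). Dpm1, the dolichol phosphate mannose synthase, had 10.9, 1.83 and 2.01 RPKM in ataxin-7, 2.10, 4.31 and 2.93 in non-stop and 10.3, 9.82 and 4.43 in OregonR (-1.12 ± 0.32 SE, adjusted p 0.0141 by limma). It overlaps CG10132, and it was not called without OregonR replicate 2 (adjusted p 0.056) or without non-stop replicate 1 (adjusted p 0.0511 by limma). Among the genes nearest the thresholds, DhpD, CG12236 and mge were higher in non-stop by 1.02, 1.46 and 1.90, and CG43107 had 1.65 but passed the filter through non-stop alone. The single noncoding member, mir-4917, is a gene of 77 bases inside yl on the same strand. It had 23.9, 0.443 and 1.21 RPKM in ataxin-7 and 10.8, 13.3 and 15.2 in non-stop, and was listed at 0.166, 0 and 0.522 RPKM in OregonR. Its reads and those of yl cannot be told apart, and yl itself had 94.1, 3.27 and 3.16 RPKM in ataxin-7, 39.5, 37.5 and 33.3 in non-stop and 0.414, 0.419 and 1.16 in OregonR.

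The members did not share one position relative to wild type in the other ataxin-7 libraries, and nor did all genes tested. Ataxin-7 replicates 2 and 3 were both below all OregonR libraries for 121 members (44.2%, against 39.0% of all genes tested), both above all OregonR libraries for 60 (21.9%, against 34.5%), and overlapped OregonR for 93. In the first set the median level was 15.3, 2.77 and 2.59 RPKM in ataxin-7, 8.17, 8.28 and 7.16 RPKM in non-stop and 7.32, 6.75 and 4.84 RPKM in OregonR. In the second it was 20.5, 2.77 and 2.22 RPKM in ataxin-7, 12.1, 11.1 and 10 RPKM in non-stop and 1.03, 1.12 and 1.62 RPKM in OregonR. Median levels in ataxin-7 replicates 2 and 3 were alike in these sets. Both the rule for the members and the cut into sets used those libraries. Unlike levels in OregonR follow from the cut, so nothing is read from them. In non-stop, 70 of the 121 were higher, 16 lower and 35 not called (median log2 fold change 0.51), all 60 of the second set were higher (2.53), and 92 of the 93 were higher (1.79). The OregonR libraries are part of both the sets and the test, so these counts are a description. All 16 members called lower in non-stop belonged to the 121.

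OregonR replicate 3 also split the members, as it split all genes tested. It was the highest OregonR library for 122 members (44.5%, against 48.6% of all genes tested), the lowest for 141 (51.5%, against 38.0%) and in between for 11. All 122 were higher in non-stop, while the 141 gave 89 higher, 16 lower and 36 not called, again with the OregonR libraries shared between the 2 sides. Role groups fell on different sides. Replicate 3 was the highest OregonR library for 19 of 20 metabolic members, 11 of 12 germ line members, 8 of 11 egg activation members and 7 of 8 redox members. It was the lowest for 18 of 18 replication and repair members, 9 of 12 chaperones, 10 of 14 transcription members and 7 of 9 translation members. Summed over the group, replication members were at 119, 108 and 74.8 RPKM in the 3 OregonR libraries and metabolic members at 67.8, 69.7 and 102.5 RPKM.

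**Figure D5:**
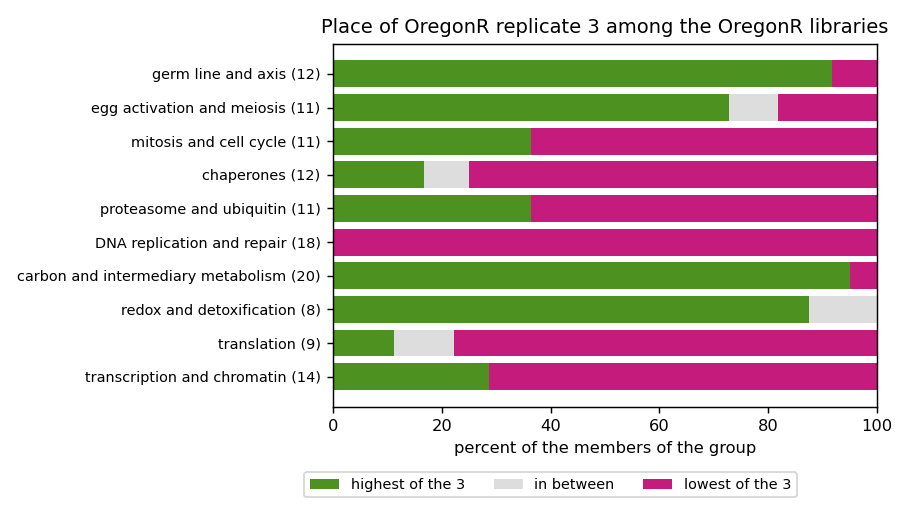
Percent of the members of each role group for which OregonR replicate 3 was the highest (green), middle (grey) or lowest (magenta) of the 3 OregonR libraries, with the number of members in brackets. Metabolism, germ line, redox and egg activation members are mostly green, and all 18 replication and repair members are magenta.

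Stage markers differed between the same libraries. Of 31 maternal marker genes, 9 were members (osk, exu, otu, tud, png, gnu, mtrm, BicC and Hsp83). The 31 genes summed to 4428, 2644.5 and 2485.5 RPKM in ataxin-7, 4253 to 4423 RPKM in non-stop and 1447 to 2000 RPKM in OregonR. Of the 31, 27 were called higher in non-stop and 1 lower (median log2 fold change 1.73). Of the 22 that were no members, 19 were called higher and 1 lower (median 1.36). Over all genes tested, 47.7% were called higher and 35.1% lower. None of 29 early zygotic genes was a member, and in all 29 replicate 1 was below both other ataxin-7 libraries. The 29 genes summed to 601, 1858 and 2818 RPKM in ataxin-7, 378 to 460 RPKM in non-stop and 4533 to 5035 RPKM in OregonR, and 29 of 29 were called lower in non-stop (median -3.66). The part of the stage of the embryos in the level of the members was not tested.

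Markers of other tissues were looked at in the same way. Of 22 eggshell and follicle cell genes, 19 were under 1 RPKM in every library, and the vitelline membrane and chorion genes Vm26Ac, Vm32E, Cp16, Cp19 and Cp38 were at 0 in all 9. The 22 genes summed to 19.2, 2.11 and 1.56 RPKM in ataxin-7, 8.44 to 10.8 RPKM in non-stop and 1.51 to 1.74 RPKM in OregonR. In replicate 1 the largest part came from the member fs(1)N, at 12.0 RPKM. The 3 yolk protein genes and the 17 gut genes were under 1 RPKM in every library, as were 12 of 14 testis genes and 12 of 13 haemocyte and fat body genes. The testis genes summed to 0.155, 0.398 and 0.847 RPKM in ataxin-7, 0.319 to 0.409 RPKM in non-stop and 2.97 to 3.52 RPKM in OregonR, and the haemocyte and fat body genes to 1.44, 4.34 and 3.98 RPKM in ataxin-7, 0.520 to 1.19 RPKM in non-stop and 4.319 to 7.999 RPKM in OregonR. The 11 muscle genes summed to 44.0, 20.6 and 17.7 RPKM in ataxin-7, 34.7 to 40.6 RPKM in non-stop and 15.2 to 20.8 RPKM in OregonR, with 8 under 1 RPKM throughout and flr alone at 39.3, 14.9 and 11.7 RPKM in ataxin-7. The 11 neuronal genes summed to 35.5, 35.6 and 38.0 RPKM in ataxin-7, 42.3 to 48.7 RPKM in non-stop and 32.8 to 42.3 RPKM in OregonR. Among the 11, 9 were under 1 RPKM in every library. Most of the sum came from Syx1A, at 48.6, 42.1 and 45.1 RPKM in non-stop and 32.7, 35.8 and 29.1 RPKM in OregonR. Syx1A was called higher in non-stop (log2 fold change 0.47), and elav was called lower (-2.41). The 9 pole cell genes summed to 287.8, 97.1 and 92.6 RPKM in ataxin-7, 175 to 213 RPKM in non-stop and 60.1 to 93.7 RPKM in OregonR. Replicate 1 was above replicates 2 and 3 in 8, beside 57.5% of all genes tested. The rule forced this for the members pgc and osk. For tut and aub the ratio of replicate 1 to the higher of replicates 2 and 3 was only 1.001 and 1.026. Of the 8 pole cell genes tested, 5 were called higher in non-stop and 1, aub, lower, beside 47.7% and 35.1% of all genes tested. Of the 13 mitochondrial transcripts none was a member, all were lower in replicate 1 than in replicates 2 and 3, and all were called lower in non-stop. Their summed level was 18571.5, 22513.5 and 25029 RPKM in ataxin-7, 11453 to 13078 RPKM in non-stop and 26482 to 29889 RPKM in OregonR. The part of these markers in the members' levels was not tested.

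The position and length of the members were compared with those of other genes as a description. Of 258 members found in the annotation, 51 lay on the X chromosome (19.8%, against 17.0% of the annotated genes tested), and 44, 54, 52 and 57 on arms 2L, 2R, 3L and 3R. The median gene length in the table was 2131 bases for members and 2210 bases for other genes tested with at least 10 RPKM. In the annotation 107 members overlapped another gene of the table, among them exu, pgc, otu, nod, lok, Hsp83 and Orc2, whose counts may hold reads of both genes. In 8 members some library had under 30 reads.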

How the data were processed

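The values analysed were the RPKM that the authors deposited in 1 table of 15682 FlyBase gene identifiers and 9 libraries. The submitters' processing notes name CASAVA 1.8.2, TopHat2 2.0.13, edgeR 3.14.0 and the genome build dm3. The counting tool and annotation are not given in the sources used here. For 13805 of 13809 genes above 0 (99.97%), the RPKM were whole reads divided by a gene length and a scaled library size (relative tolerance 3e-13, scaling factors 0.9584 to 1.073), which gave the depth. A gene of 1 kb with 3 reads had 0.0341 to 0.0767 RPKM, a floor for counting error only. The gene length was within 5% of the annotated span, introns included, for 219 of 258 members, so intron-rich genes have low RPKM for their transcripts.

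Symbols and overlaps came from the BDGP6 annotation (Ensembl release 115), which is a later build than dm3, and no coordinates are given. A symbol was lacking for 16 members. Gene lists and role groups were matched by symbol. Listed genes that stand here without a symbol were therefore not found, and the 16 members have no role group. Groups followed the titles. Non-stop was compared with OregonR by limma (version 3.58.1, under R version 4.3.3) fitted to log2(RPKM + 1), with an intensity trend, two-sided, without covariates, on genes with at least 1 RPKM in at least 3 of the 6 libraries, and adjusted by Benjamini-Hochberg over all genes tested. The scale understates changes of low genes, and p-values measure the spread between these samples. The fit was tested on simulated data. Other calculations used Python 3.11.15. The genes named in full were the 15 members highest in ataxin-7 replicate 1, the 8 with the largest and the 5 with the smallest log2 fold change, members on the marker lists and the genes nearest the thresholds. The members and lists were chosen with earlier results of these data known. The alternatives tried were another pseudocount, other filters, scalings and fits, a replicate block, leaving out each library, and other thresholds of the rule. 1 member with a known role is not reported by name here.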

Additional observations from a re-analysis of the deposited data

How the results depend on the processing

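Under 16 other fits, 111 members were called higher in non-stop in every fit and 0 were called lower in every fit. The fit on all 9 libraries gave 125 higher and 0 lower by limma (1 lower at an unadjusted p under 0.05), against 222 and 16 with 6 libraries, since its spread includes the gap that chose the members. Quantile normalization gave 29 lower and a median log2 fold change of 1.20, and CG13344 alone among called members turned its sign. With that scaling the median of all genes tested was 0.05, against 0.17. The median of the members was 1.22 with centring by gene length, 1.76 with voom on recovered reads and 1.72 with a pseudocount of 0.1. Why these medians moved was not tested. Leaving out 1 library gave 189 to 228 higher, 11 to 27 lower (27 without OregonR replicate 3) and medians of 1.28 to 1.45, with 251 members tested when a non-stop library was left out. Thresholds of 5 and 20 RPKM gave 525 and 118 members, with 386 and 101 higher, 38 and 4 lower and medians of 1.14 and 1.86. Ratios of 3 and 6 gave 443 and 139 members, with 339 and 121 higher, 29 and 3 lower, and a median of 1.65 for the ratio of 6. Of 631 values of the 40 named members, 608 kept direction and call, 15 lost the call, 3 gained it and 5 turned sign: tud (-0.17 with length centring, -0.04 with quantile normalization) and Orc2 (-0.13, -0.15, and from -0.12 to 0.29 when 1 library was left out, -0.12 without OregonR replicate 3). With a replicate block, 227 were higher and 18 lower. Same-numbered non-stop and OregonR libraries deviated with correlations of -0.24, 0.11 and -0.11, and the other pairs with -0.19 to 0.23. With 3 libraries per group these values cannot decide whether the numbers pair the samples, which came from different experiments. Depth limits the 8 members with under 30 reads in some library.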
